A study of Mus musculus with 20 samples.

Results

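The cytosolic ribosomal protein genes of the mouse liver were taken as the rows of the count table whose symbol starts with Rpl or Rps and a digit, or is Rplp0, Rplp1, Rplp2 or Rpsa. Symbols that start with Rps6k, which are kinases, and names with -ps, which are pseudogenes, were left out. The rule gave 89 of 20914 genes. Of these, 31 encode proteins of the small ribosomal subunit (40S), 46 encode proteins of the large subunit (60S), and 12 are paralogs, retrogene-like rows or other matches of the name. Rps19bp1 is such a match: it encodes a protein that binds Rps19 and is not a part of the ribosome.

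The ribosome translates mRNA, and its proteins are assembled onto ribosomal RNA, most of them in the nucleolus and some, those of the stalk among them, in the cytoplasm. The small subunit reads the mRNA, the large subunit forms the peptide bond, and the stalk proteins of the large subunit recruit the elongation factors. Ribosomal protein mRNAs start with a run of pyrimidines, the 5' terminal oligopyrimidine (TOP) motif, through which mTORC1 and the RNA-binding protein LARP1 control their translation in the mouse as in other mammals. The liver makes most plasma proteins and has a high demand for ribosomes.

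RNA from the left lateral liver lobe was sequenced in 10 knockout (KO) and 10 wild-type (WT) male mice aged 8 weeks, of the line named LiB12cKO. KO mice had the genotype HSD17B12lox/lox;Alb-CreCre/WT and WT mice the genotype HSD17B12lox/lox;Alb-CreWT/WT, so both groups carried the floxed gene and only KO mice carried Cre. Cre was driven by the albumin promoter, a promoter of hepatocytes, and which liver cells lost the gene was not measured. The effect of Cre itself and that of the loss of Hsd17b12, a reductase of very-long-chain fatty acid elongation, cannot be told apart in this design. Hsd17b12 (chromosome 2, 94032697 to 94157909 in mm10) had 44.2, 47.9 and 51.3 CPM (counts relative to the library total scaled by TMM factors; lowest, median and highest mouse) in KO livers, against 123, 154 and 177 CPM in WT livers. The groups did not overlap, and the log2 fold change was -1.66 (SE 0.064, adjusted p = 3.84e-14).

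The libraries held 16693195 to 29124124 fragments assigned to genes. The TMM factors, which scale libraries so that the middle of the fold changes lies near 0, were 1.05 to 1.24 in KO mice and 0.787 to 0.974 in WT mice. The 2 ranges did not overlap, so the scaling enters every fold change: the median log2 fold change of the 13670 tested genes was -0.02 with TMM and 0.44 with library size alone, a shift of 0.47. Multi-mapping fragments made up 2.1% to 8.51% in KO mice and 3.4% to 14.2% in WT mice, and mouse KO_391 had the highest share and the lowest TMM factor of its group. Of the marker lists, 7 of 7 tested hepatocyte markers fell in KO livers with TMM and 5 of 7 with library size alone, and their sum was 41778 to 58097 CPM in KO livers and 73411 to 103743 CPM in WT livers. With TMM 8 of 10 macrophage, 5 of 6 stellate cell and fibroblast, 3 of 6 endothelial and 4 of 4 tested dividing-cell markers rose, and 9, 5, 6 and 4 with library size alone. Of all tested genes, 28.2% rose and 31.0% fell with TMM, and 68.4% rose and 6.72% fell with library size alone. The macrophage markers summed to 258 to 511 CPM in KO livers and 123 to 259 CPM in WT livers. Of the sparser lists, 1 of 3 tested lymphocyte and 2 of 5 cholangiocyte markers rose and 1 of 5 cholangiocyte and 1 of 4 erythroid markers fell with TMM, neither of 2 tested neutrophil markers was called, and Ly6g, which defines neutrophils, was at 0 in 19 mice. The part of these shifts in the values below was not tested. In bulk tissue, fewer cells of a type and less RNA per cell cannot be told apart.

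With TMM scaling the ribosomal protein mRNAs were slightly lower in KO livers, and with library size alone most were higher, less so than the median gene. Of the 89 genes, 86 passed the filter on low counts. With TMM, 43 of these 86 fell and 0 rose at an adjusted p under 0.05 in edgeR's quasi-likelihood test, so 50% were lower, while 31.0% of all tested genes were lower and 28.2% higher. With library size alone, 45 rose and 1 fell, against 68.4% and 6.72% of all tested genes. By subunit, 16 of 31 small-subunit and 22 of 45 large-subunit genes fell with TMM, with a median log2 fold change of -0.22 in each (0.26 and 0.25 with library size alone). Set against the median of all tested genes, the median of the 86 genes was lower by a log2 difference of -0.20 with TMM and -0.19 with library size alone.

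**Figure D1:**
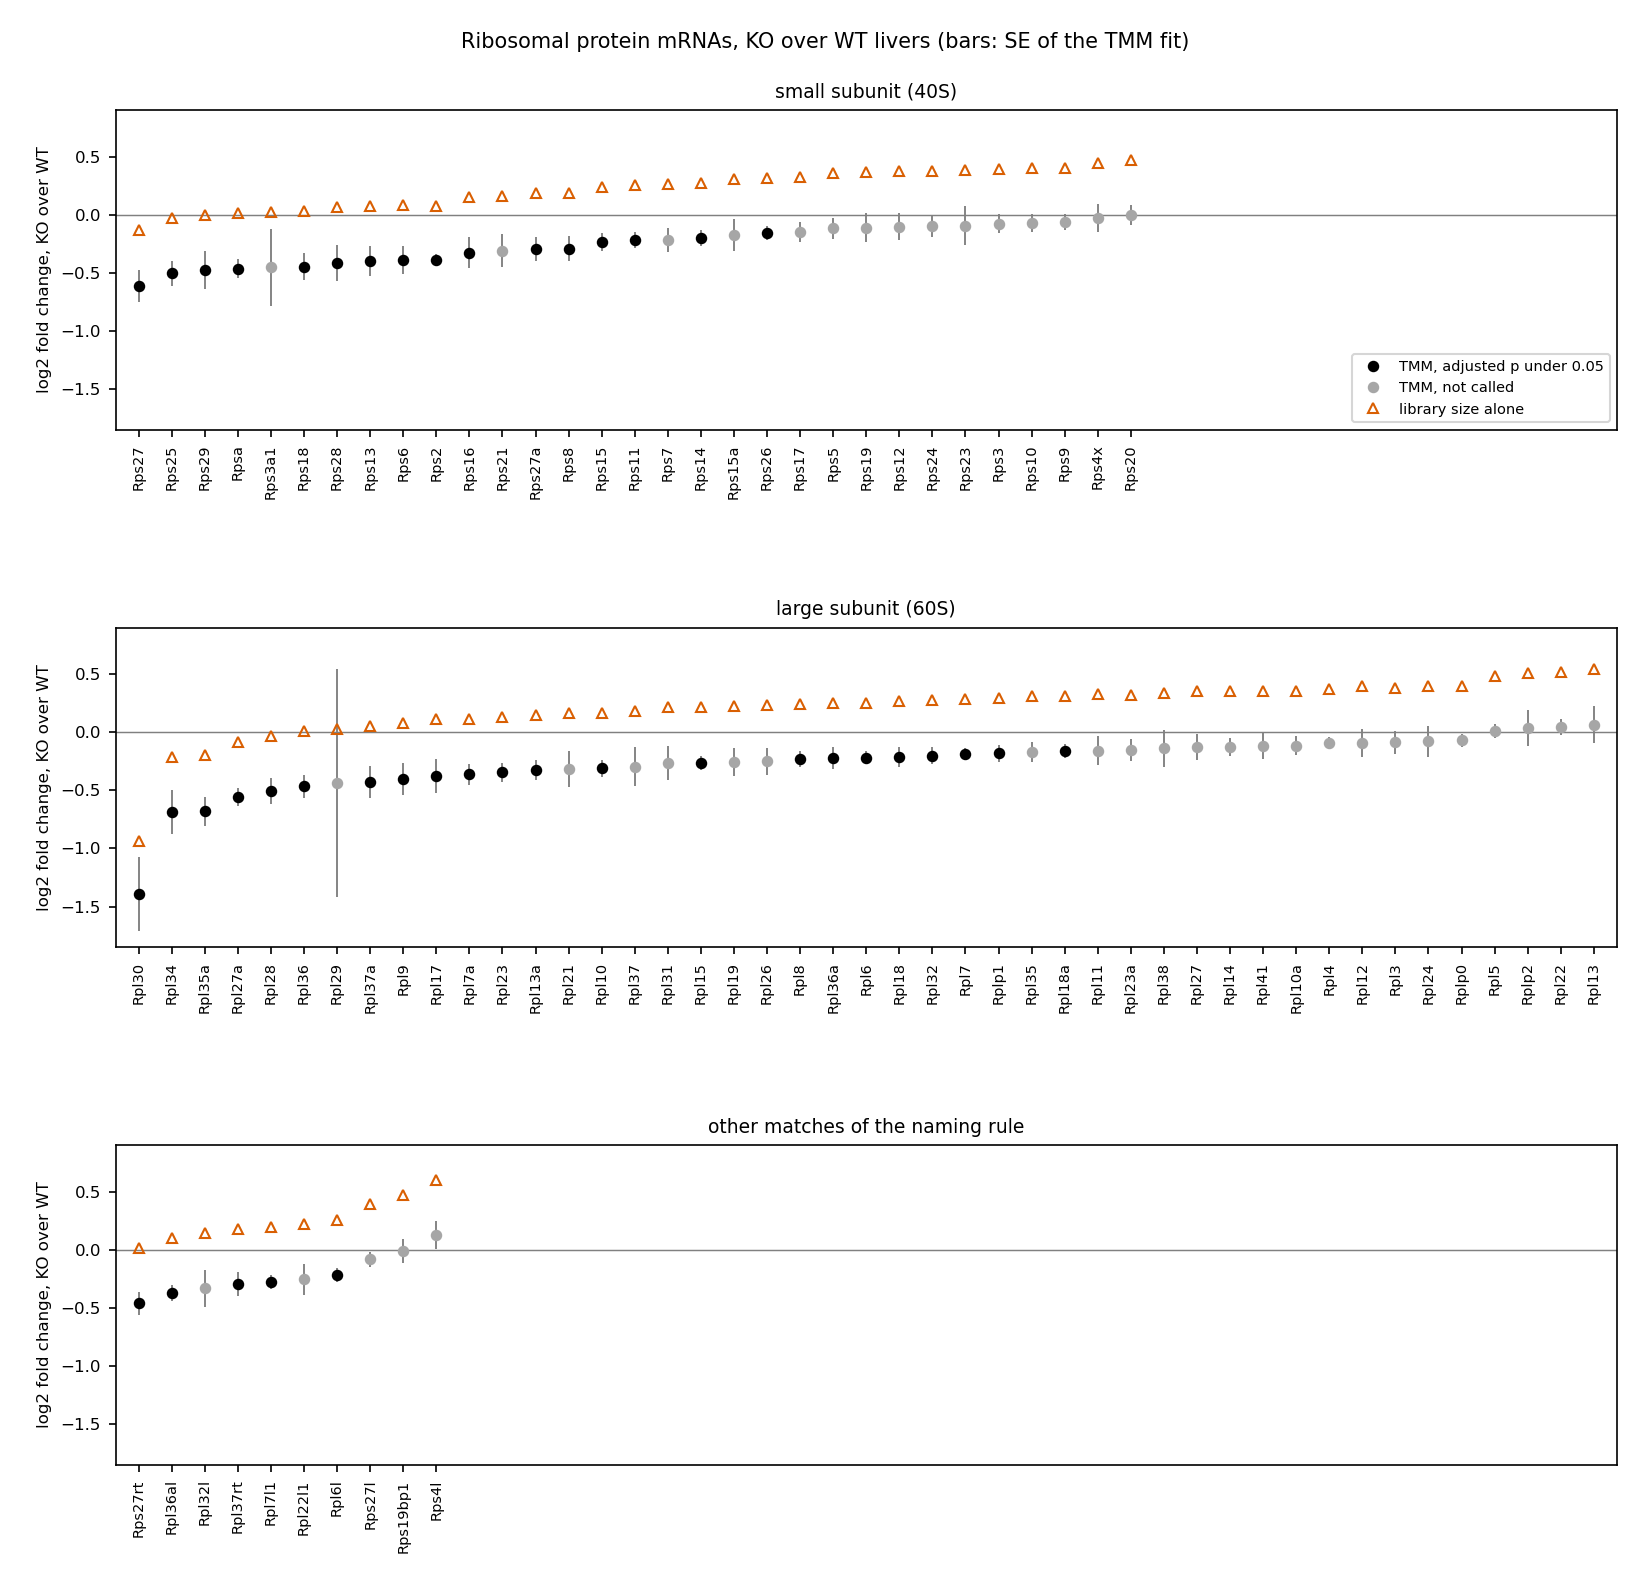
Log2 fold change of each tested ribosomal protein gene (KO over WT, 10 mice each), with TMM scaling as circles (black where the adjusted p is under 0.05, bars are SE) and with library size alone as triangles. With TMM 80 of 86 values lie below 0 and with library size alone 78 of 86 lie above 0, and Rpl30 lies lowest in both.

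In the authors' deposited table, made with ROTS on another set of genes, 17 of the 86 genes had a negative fold change at a false discovery rate under 0.05, and none had a positive one, where 18.9% of its 12820 genes were lower and 22.1% higher. In the authors' deposited table of cellular components, the cytosolic ribosome, with 106 annotated genes, had a false discovery rate of 1. When the libraries were instead scaled to the geometric mean of the ribosomal protein genes themselves, 8 of the 86 rose and 7 fell, against 45.2% and 8.39% of all tested genes.

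The summed mRNA of each subunit showed the same dependence on scaling. The small-subunit genes together had 1715, 2056 and 2711 CPM (lowest, median and highest mouse) in KO livers, against 2178, 2348 and 2649 CPM in WT livers. The large-subunit genes had 2439, 2931 and 3559 CPM in KO livers, against 3002, 3217 and 3479 CPM in WT livers. Mouse KO_416 lay above every WT mouse in both sums. The other 9 of 10 KO mice lay below the lowest WT mouse in the small-subunit sum, and in the large-subunit sum KO_453 also lay above the lowest WT mouse, WT_407. As a share of all assigned fragments, the order was the other way: the small-subunit genes held 0.179% to 0.329% in KO livers and 0.176% to 0.254% in WT livers, and the large-subunit genes 0.255% to 0.432% in KO livers and 0.243% to 0.339% in WT livers. The ratio of the large-subunit to the small-subunit sum, which no scaling changes, was 1.41 ± 0.044 in KO livers and 1.36 ± 0.022 in WT livers (SD, n = 10 each), with ranges of 1.31 to 1.46 and 1.31 to 1.38.

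**Figure D2:**
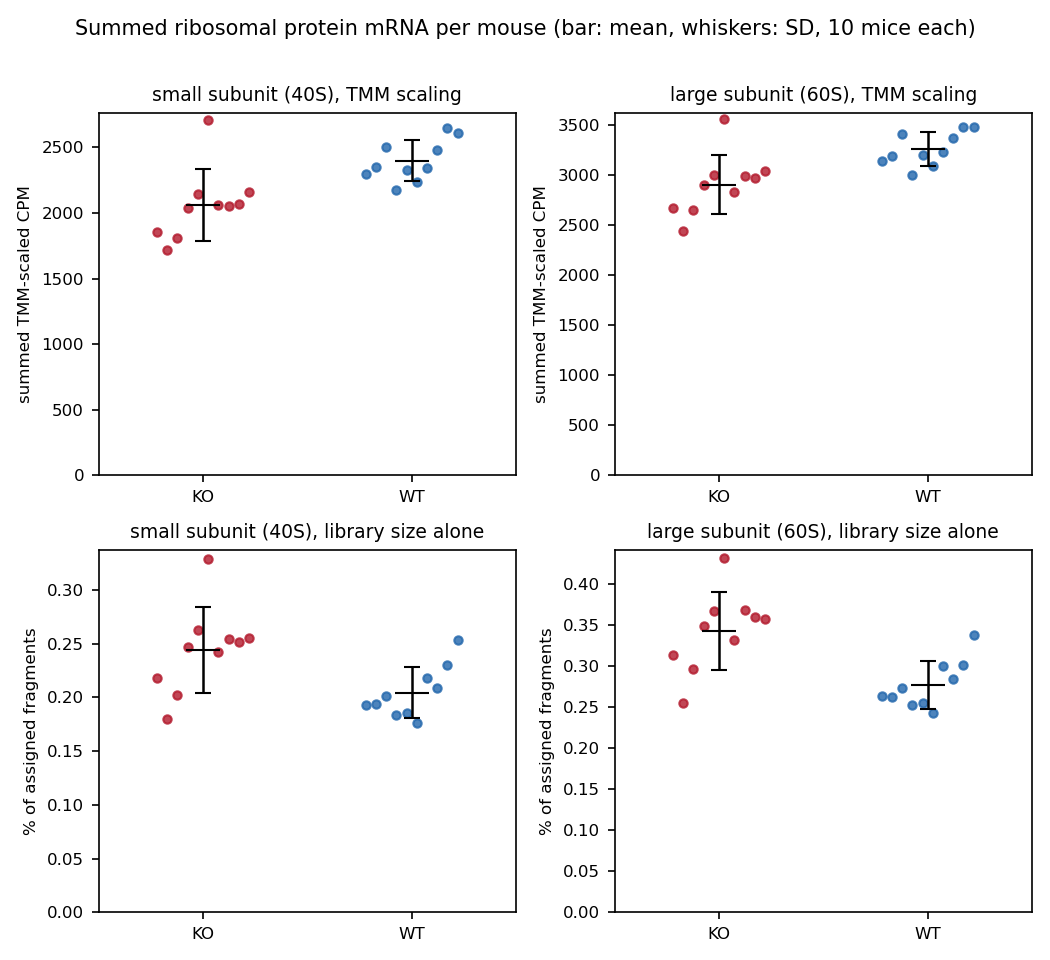
Summed level of the small-subunit and large-subunit genes in each mouse, KO left of WT, as TMM-scaled CPM (top) and as percent of assigned fragments (bottom); lines are means and whiskers SD of 10 mice. The KO mice lie mostly below the WT mice in the top panels and mostly above them in the bottom panels.

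Of all 86 genes, 2 had every KO mouse below every WT mouse with TMM, Rps2 and Rpl27a, and none had every KO mouse above, where 6.47% of all tested genes lay wholly below and 7.10% wholly above. These 2 genes were singled out after their values were seen. Rps2, a small-subunit protein at the entry of the mRNA channel (chromosome 17, 24720063 to 24721927, 6 exon blocks), had 227, 244 and 274 CPM in KO livers, against 293, 312 and 366 CPM in WT livers. Rpl27a, a large-subunit protein (chromosome 7, 109519195 to 109522369, 5 exon blocks), had 12.3, 16.3 and 19.0 CPM in KO livers, against 20.3, 23.3 and 27.8 CPM in WT livers. The log2 fold change of Rps2 was -0.39 (SE 0.052, adjusted p = 1.33e-06) with TMM and 0.08 (adjusted p = 0.27) with library size alone. For Rpl27a it was -0.56 (SE 0.080, adjusted p = 3.51e-06) with TMM and -0.08 (adjusted p = 0.44) with library size alone.

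Among small-subunit genes, the lowest fold changes belonged to Rps27, Rps25, Rps29, Rpsa and Rps3a1. Rps27, a zinc-binding protein, had 2.27, 3.00 and 4.36 CPM in KO livers, against 3.43, 5.13 and 6.20 CPM in WT livers. Its log2 fold change was -0.61 (SE 0.14, adjusted p = 0.000557), and it held 3.1% of the fragments counted to it and its near copies, rows of nearly the same sequence. Rps25, which some viral RNAs need to bind the ribosome, had 22.2, 34.3 and 48.5 CPM in KO livers, against 40.5, 48.6 and 54.2 CPM in WT livers. The groups overlapped in both genes, and the fold change of Rps25 was -0.50 on the log2 scale (SE 0.10, adjusted p = 0.000274). Rpsa, also known as the laminin receptor and bound to the back of the small subunit, had 116, 139 and 209 CPM in KO livers, against 182, 191 and 218 CPM in WT livers. Here 9 of 10 KO mice lay below all WT mice, KO_416 again being the exception, and the log2 fold change was -0.46 (SE 0.083, adjusted p = 5.99e-05). Rps29, another zinc-binding protein, was low throughout, at 0.913 to 2.45 CPM in KO livers and 1.59 to 3.03 CPM in WT livers, with a log2 fold change of -0.48 (adjusted p = 0.016). With library size alone the log2 fold changes were -0.13 for Rps27, -0.03 for Rps25, -0.0045 for Rps29 and 0.01 for Rpsa, and none of the 4 was called.

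The sequences around the transcription start are shown because the TOP motif lies there. Rps2 and Rpl27a, the 2 genes without overlap, also differ there in the length of the longest pyrimidine run. Each window has 15 bases before the start and 15 from the start on, read 5' to 3' from the RefSeq promoters of GRCm38.p6, with the longest run of C and T in capitals.
Rps2 (chr17:24720048-24720077, plus strand): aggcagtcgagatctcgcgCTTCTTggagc
Rpl27a (chr7:109519180-109519209, plus strand): gacttcgtgagCTCCTCCCTTTTCCCTTTC
Rps25 (chr9:44407699-44407728, plus strand): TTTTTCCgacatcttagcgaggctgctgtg
Rps27 (chr3:90213634-90213663, minus strand): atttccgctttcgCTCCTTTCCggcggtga
Rplp2 (chr7:141447636-141447665, plus strand): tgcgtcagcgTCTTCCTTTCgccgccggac
Rplp0 (chr5:115559452-115559481, plus strand): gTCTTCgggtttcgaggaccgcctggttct
Rpl27a had a run of 19 pyrimidines across the annotated start, and Rps2 one of 6 just after it. Rplp2, which was not called with TMM, had a run of 10, and Rps27, which fell with TMM, one of 9. The annotated start can lie some bases off the true one, so a short run in this window says only that these letters are not there.

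RefSeq promoters were found for 67 of the 89 genes, and for 57 of the 77 small-subunit and large-subunit genes, with 67 annotated starts. A run of at least 8 pyrimidines on the sense strand lay in this window of 30 bases in 38.8% of the 67, against 12% of all 32851 promoters. On either strand of the 300 bases from 250 before the start to 50 after it, CCGGAAG (letters bound by GABP and other ETS factors) was in 37.3%, against 8.86% of all promoters. AAGATGG (letters of the YY1 motif) was in 16.4%, against 6.34%, and the palindrome CACGTG (the E-box bound by Myc with Max) in 11.9%, against 7.15%. CCGGAAG ends with the letters AAGATGG begins with, so 1 site can hold both. By this run, the median log2 fold change with TMM was -0.23 in the 24 tested genes with a run and -0.22 in the 32 without one. Of these, 12 and 13 fell, where 31.0% of all tested genes fell with TMM.

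At the other end of the small-subunit genes, Rps20, Rps4x, Rps9, Rps10 and Rps3 had TMM log2 fold changes between -0.08 and 0.00039, and none was called with TMM. Rps20, a protein of the subunit's head, had 93.9, 121 and 179 CPM in KO livers, against 107, 121 and 149 CPM in WT livers. Rps3, which lines the entry of the mRNA channel, had 218, 253 and 337 CPM in KO livers, against 231, 260 and 330 CPM in WT livers. The highest value of each was again in KO_416. Rps4x, the copy on the X chromosome, had 23.3, 33.0 and 44.4 CPM in KO livers and 24.3, 32.9 and 44.2 CPM in WT livers. The groups of Rps4x nearly coincided. Rps9, a protein of the subunit's body, averaged 112 ± 10.7 CPM in KO livers and 117 ± 15.2 CPM in WT livers (SD, n = 10 each). Rps10, a protein of its head, averaged 39.97 ± 4.403 CPM in KO livers and 41.9 ± 5.33 CPM in WT livers (SD, n = 10 each). With library size alone all 5 rose, with log2 fold changes of 0.39 to 0.47. On that scale 68.4% of all tested genes rose, and their median was 0.44.

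Among large-subunit genes the lowest fold changes were those of Rpl30, Rpl34, Rpl35a, Rpl27a and Rpl28. Rpl30, which lies where the subunits meet, had 1.73, 4.48 and 10.46 CPM in KO livers, against 7.49, 11.6 and 22.0 CPM in WT livers, a log2 fold change of -1.39 (SE 0.32, adjusted p = 0.00089). Rpl30 held 5.8% of the fragments counted to it and its near copies, which are described further on, and with these added the value was -0.37. It was also the single ribosomal protein gene that fell with library size alone, by a log2 fold change of -0.94 (SE 0.31, adjusted p = 0.01). The KO mice lay on separate levels of Rpl30, which was seen only after its values were looked at. KO_372, KO_404, KO_414, KO_416 and KO_435 had 1.73 to 2.66 CPM and the other KO mice 6.29 to 10.46 CPM. The KO median of 4.48 CPM lies in the gap between these levels, whose source was not tested. Rpl35a, whose human gene is mutated in some Diamond-Blackfan anaemia, had 7.39, 10.02 and 14.0 CPM in KO livers, against 12.7, 16.7 and 22.7 CPM in WT livers. The ranges of Rpl35a overlapped little, and its log2 fold change was -0.68 (SE 0.12, adjusted p = 6.65e-05). Rpl34 had 1.79, 3.01 and 4.63 CPM in KO livers, against 2.44, 4.83 and 7.21 CPM in WT livers, with a log2 fold change of -0.69 (SE 0.19, adjusted p = 0.00431). Rpl34 held 2.6% of the fragments counted to it and its near copies, and with these added the value was -0.14. Rpl28, a protein that budding yeast lacks, had 2.48 to 3.85 CPM in KO livers and 3.46 to 5.82 CPM in WT livers, with a log2 fold change of -0.51 (adjusted p = 0.000512). With library size alone the log2 fold changes of Rpl35a, Rpl34 and Rpl28 were -0.20, -0.21 and -0.03, and none of the 3 was called.

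**Figure D3:**
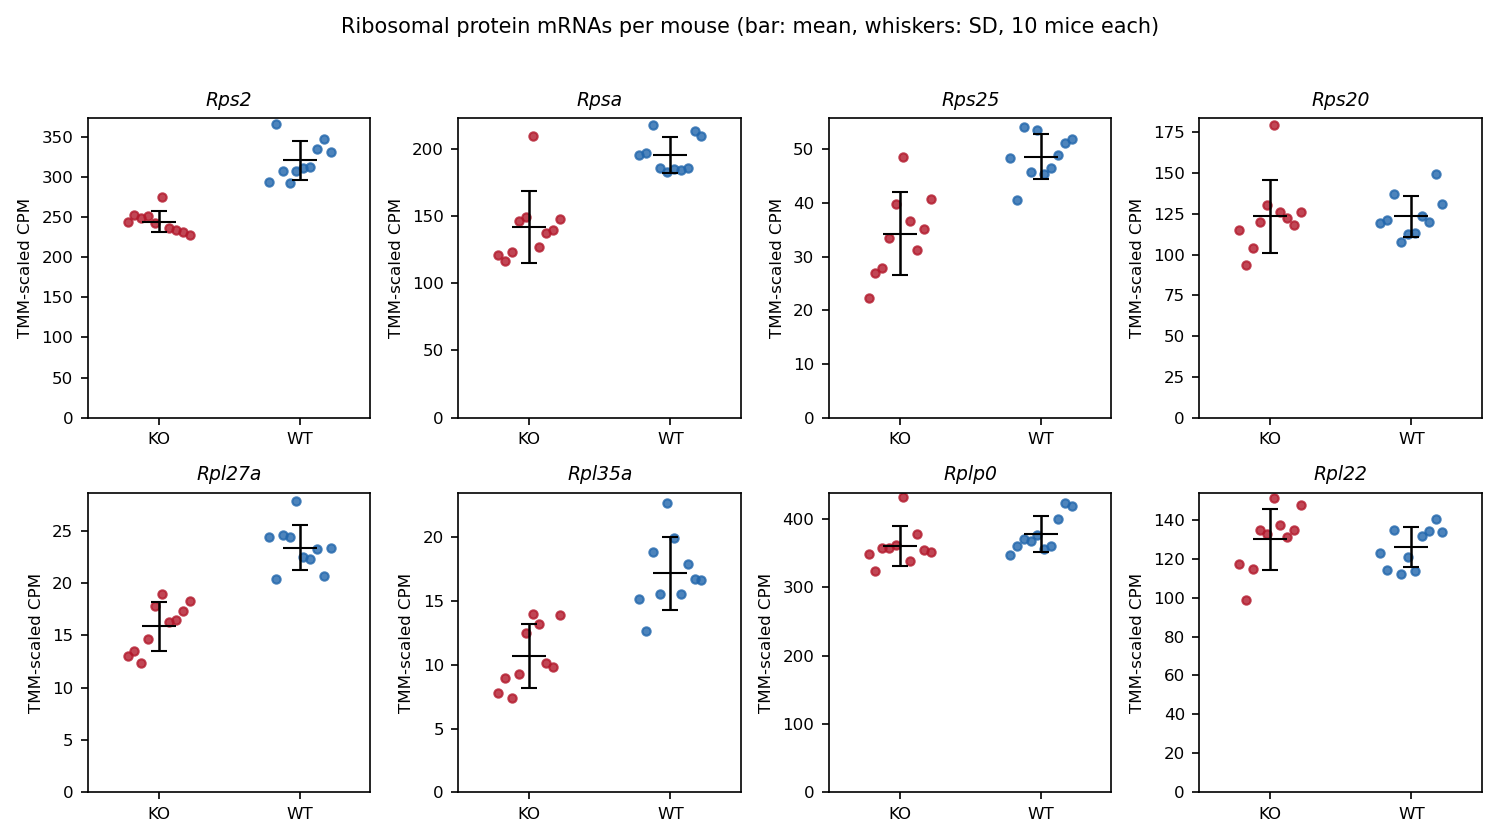
TMM-scaled CPM of 8 ribosomal protein genes in each mouse, KO left of WT; lines are means and whiskers SD of 10 mice. Rps2 and Rpl27a show no overlap, Rpsa and Rps25 overlap through few KO mice, and Rps20, Rplp0 and Rpl22 overlap throughout; with library size alone the log2 fold changes of Rps2 and Rpsa are 0.08 and 0.01, and those of Rps20, Rplp0 and Rpl22 lie between 0.40 and 0.52.

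Of the 3 stalk genes, 1 fell with TMM, where 31.0% of all tested genes fell. All 3 rose with library size alone, where 68.4% of all tested genes rose. Rplp0, the base of the stalk, had 324, 356 and 433 CPM in KO livers, against 347, 369 and 423 CPM in WT livers. Its log2 fold change was -0.07 (SE 0.057, adjusted p = 0.307) with TMM and 0.40 (adjusted p = 8e-05) with library size alone. Rplp1, which binds that base as a pair with Rplp2, was the highest of all 89 genes per length in WT livers, with 751 ± 91.2 RPKM in KO livers and 850 ± 91.7 RPKM in WT livers (SD, n = 10 each). It fell with TMM by a log2 fold change of -0.18 (SE 0.076, adjusted p = 0.0442) and rose with library size alone by 0.29 (adjusted p = 0.007). The call with TMM was lost in 14 of the 20 fits that leave out 1 mouse and with DESeq2 size factors (adjusted p = 0.0673). Rplp2 had 13.6, 26.8 and 34.5 CPM in KO livers, against 17.0, 25.1 and 31.1 CPM in WT livers. The groups overlapped throughout, and its log2 fold change was 0.04 (SE 0.16, adjusted p = 0.852) with TMM and 0.51 (adjusted p = 0.012) with library size alone.

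The highest large-subunit fold changes, beside those of Rplp2 and Rplp0, were those of Rpl13, Rpl22 and Rpl5, and none was called with TMM. Rpl22, an RNA-binding protein known for its role in T cell development, had 98.9, 134 and 151 CPM in KO livers, against 112, 127 and 140 CPM in WT livers. Rpl5, which carries 5S ribosomal RNA and can bind Mdm2, had 16.5, 19.8 and 22.8 CPM in KO livers, against 16.6, 19.8 and 21.8 CPM in WT livers. Rpl13 had 1.43, 2.76 and 3.31 CPM in KO livers, against 1.65, 2.37 and 3.22 CPM in WT livers. The groups overlapped in all 3 genes. With library size alone these rose, with log2 fold changes of 0.52 for Rpl22, 0.48 for Rpl5 and 0.55 for Rpl13. On that scale 68.4% of all tested genes rose, and their median was 0.44.

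With the libraries scaled to the ribosomal protein genes themselves, the differences within the group were left. Rpl30, Rpl35a, Rps27, Rpl27a, Rps25, Rpl36 and Rpsa fell relative to the others, with log2 fold changes of -1.09 to -0.21. Rps4l, Rpl22, Rpl5, Rplp2, Rps20, Rps19bp1, Rps4x and Rps27l rose relative to them, by 0.19 to 0.40. Among these, Rpl22 had an adjusted p of 0.00118 and Rpl35a one of 0.000408. A value on this scale is a difference from the average ribosomal protein gene and says nothing of the whole.

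Outside the subunit lists, 10 of 12 genes passed the filter, and with TMM 5 fell and 0 rose, where 31.0% of all tested genes fell and 28.2% rose. Rpl36al, a paralog that encodes a protein almost the same as that of Rpl36a, had 113, 123 and 163 CPM in KO livers, against 146, 160 and 194 CPM in WT livers, and fell by a log2 fold change of -0.37 (SE 0.067, adjusted p = 5.93e-05). Rpl7l1, a paralog of Rpl7 that takes part in the assembly of the large subunit, had 41.8, 49.5 and 57.7 CPM in KO livers, against 52.2, 59.9 and 68.7 CPM in WT livers, and fell by -0.28 (SE 0.060, adjusted p = 0.000387). The ranges overlapped in both, and with library size alone the log2 fold changes were 0.11 for Rpl36al (not called) and 0.19 for Rpl7l1 (called higher). Rps27rt, Rpl37rt and Rpl6l, each a single exon block, are near copies of Rps27, Rpl37 and Rpl6 and are counted here as separate genes. They also fell with TMM, with log2 fold changes of -0.46, -0.30 and -0.22, and had 0.02, 0.18 and 0.26 with library size alone. The call of Rpl37rt was lost without KO_372.

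The remaining matches were not called with TMM. Rps27l, a paralog of Rps27 that p53 can induce, had 120, 137 and 164 CPM in KO livers, against 129, 141 and 184 CPM in WT livers, with a log2 fold change of -0.08 (adjusted p = 0.29) and one of 0.40 with library size alone. Rpl22l1, the paralog of Rpl22, and Rpl32l had log2 fold changes of -0.26 and -0.33 (0.23 and 0.15 with library size alone). Gm15421, a more abundant near copy of Rpl22l1 (99.7% identity), had -0.55 (adjusted p = 0.000149) with TMM. This copy was picked after its value was seen. Rps4l, a single exon block, had one of 0.13, and Rps19bp1 one of -0.01 (0.60 and 0.47 with library size alone, both called higher). Rpl39, Rpl39l and Rpl3l had too few counts to test.

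Rpl3l, a paralog of Rpl3 found in skeletal muscle and heart, was near 0 in most livers. It had 0 to 4 counts in the 10 KO mice, 114 counts in WT_389, 32 in WT_441 and 0 to 11 in the other WT mice. In the same 2 mice Acta1, the actin of skeletal muscle, was at 248 and 66.0 CPM, against at most 2.09 CPM in any other mouse. The list of 7 muscle genes, chosen after the values of Rpl3l were seen, summed to at most 1.12 CPM in KO livers and at most 537 CPM in WT livers. Myh4 was at 0 in 16 mice and Ckm in 15. Whether muscle in the samples set the Rpl3l counts was not tested. Rpl39l, the testis paralog of Rpl39, had 0 counts in 17 of 20 mice and at most 6.

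Ribosomal protein genes have many near copies, most of them processed pseudogenes. Of the 85 genes with an annotated coding sequence, 79 had at least 1 other transcript of at least 90% identity over 80% of that sequence, with a median of 8 and a maximum of 77 (Rpl21). The authors' counts include multi-mapping fragments, so a gene and its copies could each take a part, which was not tested. The mean level in WT livers ran from 0.331 RPKM (Rpl39) to 850 RPKM (Rplp1) among the small-subunit and large-subunit genes. Across the 76 of these genes that were tested, the RPKM in WT livers and the number of near copies had a Spearman correlation of -0.39, given as a description. The log2 fold change and the number of near copies had one of -0.42, and the log2 fold change and gene length one of 0.09.

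In several genes the copies held most of the fragments. Beside Rpl34, Rps27 and Rpl30, Rpl13 itself held 1.1% of the fragments counted to it and its copies and Rpl28 1.7%, whereas Rpsa, Rps3 and Rplp0 had no copy row with counts. Of 141 copy rows with counts that are not among the 89 genes, 72 were tested, and with TMM 29 of these fell and 2 rose, where 31.0% of all tested genes fell and 28.2% rose. Their median log2 fold change was -0.18. The rows include Gins1, matched to the 78 coding bases of Rpl41 (log2 fold change -0.84, called lower), and Wdr89, matched to Rplp2 (0.18, not called). These are other genes with a matching stretch, and they enter the sums of Rpl41 and Rplp2 below. Each small-subunit and large-subunit gene was also summed with its copies, an alternative chosen after seeing the data. Rps27rt, Rpl37rt, Rpl6l and Rpl32l were merged into other genes in this way, and copies of the other matches of the name were not added. In this form 44 of 83 tested genes fell and 1 rose with TMM, against 31.0% and 28.3% of all genes tested. The median log2 fold change of the 83 was -0.18.

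Sums with copies changed single genes more than the group. Rpl30 with its copies averaged 129 CPM in KO livers and 166 CPM in WT livers. For Rpl36a the TMM log2 fold change was -0.70 in place of -0.22, through the copy Gm13194 (log2 fold change -1.29). Rpl21 with its 8 copy rows had 0.19 (adjusted p = 0.0039) in place of -0.32 (adjusted p = 0.0855), through BC004004 (log2 fold change 0.41). Rpl36a and Rpl21 were picked here after their values were seen. Rps2 and Rpl27a fell in both forms, by -0.39 and -0.47 with copies, and Rpsa had no copy row to add.

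**Figure D4:**
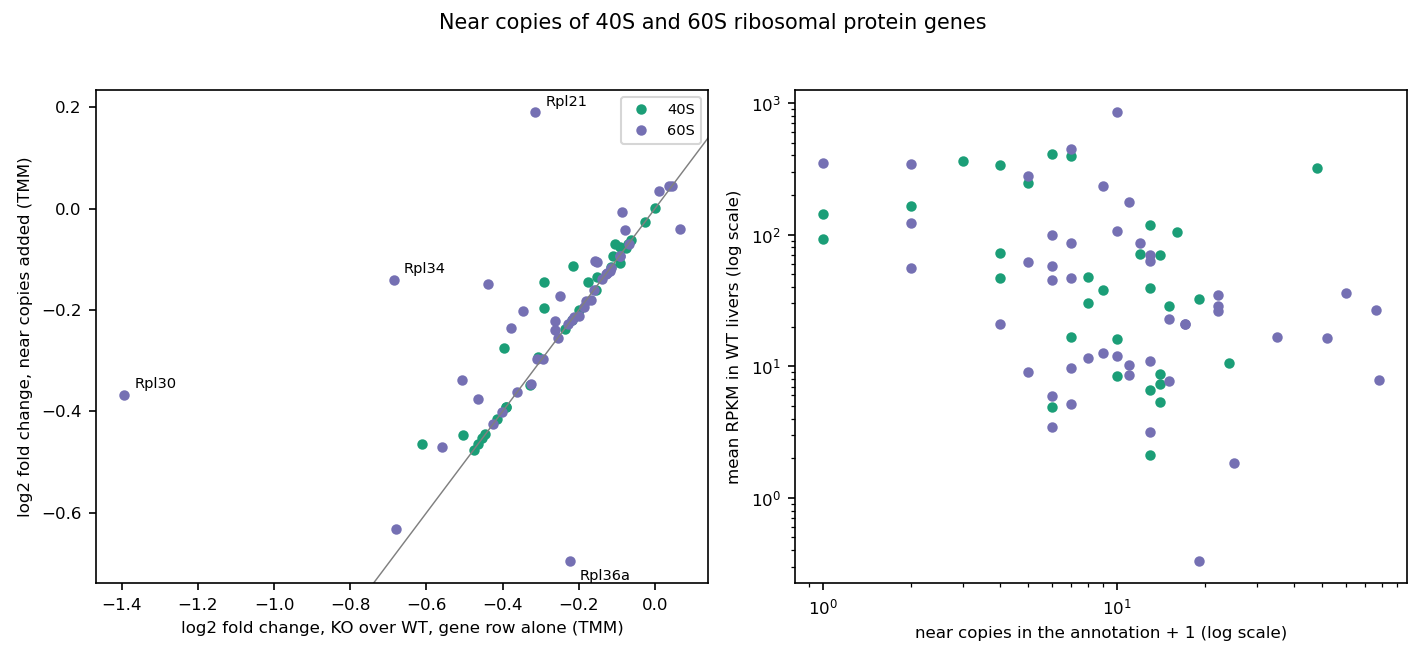
Left, TMM log2 fold change (KO over WT) of each small-subunit and large-subunit gene alone against that with its near copies added, with the line of equal values; right, mean RPKM in WT livers against the number of near copies plus 1, both on log scales. Most genes lie near the line, and Rpl30, Rpl34, Rpl36a and Rpl21 lie far from it.

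Rpl29 and Rps3a1 lay on separate levels among mice of both genotypes. Rpl29, a large-subunit protein that also binds heparin (chromosome 9, 106429539 to 106431567), had 55.9, 59.4 and 60.8 CPM in KO_414, KO_435 and KO_453 and 1.55 to 3.04 CPM in the other 7 KO mice, against 59.3 to 63.6 CPM in WT_408, WT_409, WT_415 and WT_441 and 1.02 to 2.47 CPM in the other 6 WT mice. No mouse lay between 3.04 and 55.9 CPM. Gm8210 (chromosome 1, 43189127 to 43189773), a single exon block whose transcript is 99.4% identical to the Rpl29 coding sequence, was at 143 to 165 CPM in those 7 mice and at 173 to 251 CPM in the other 13. The sum of Rpl29 and Gm8210 ran from 175 to 252 CPM without such a gap.

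Rps3a1, a small-subunit protein near the mRNA exit (chromosome 3, 86137940 to 86142668), had 50.1 CPM in KO_416, 43.6 CPM in KO_453 and 11.1 to 18.7 CPM in the other 8 KO mice, against 42.4 to 48.8 CPM in WT_406, WT_407, WT_408 and WT_441 and 16.3 to 19.6 CPM in the other 6 WT mice. Mice KO_453, WT_408 and WT_441 were on the high level of both genes. The 2 genes were picked after their values were seen, and the fold changes between genotypes, -0.44 (SE 0.98) for Rpl29 and -0.45 (SE 0.33) for Rps3a1 with TMM and 0.03 and 0.02 with library size alone, were called with neither scaling. In the authors' deposited ROTS table, Rps3a1 is among the 17 lower genes (log2 fold change -0.48, false discovery rate 0.0347). Rpl29 summed with its copies had -0.15 and was called lower with TMM (edgeR adjusted p = 0.0256). The labels give nothing that sets these mice apart, and the source of the levels was not tested.

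**Figure D5:**
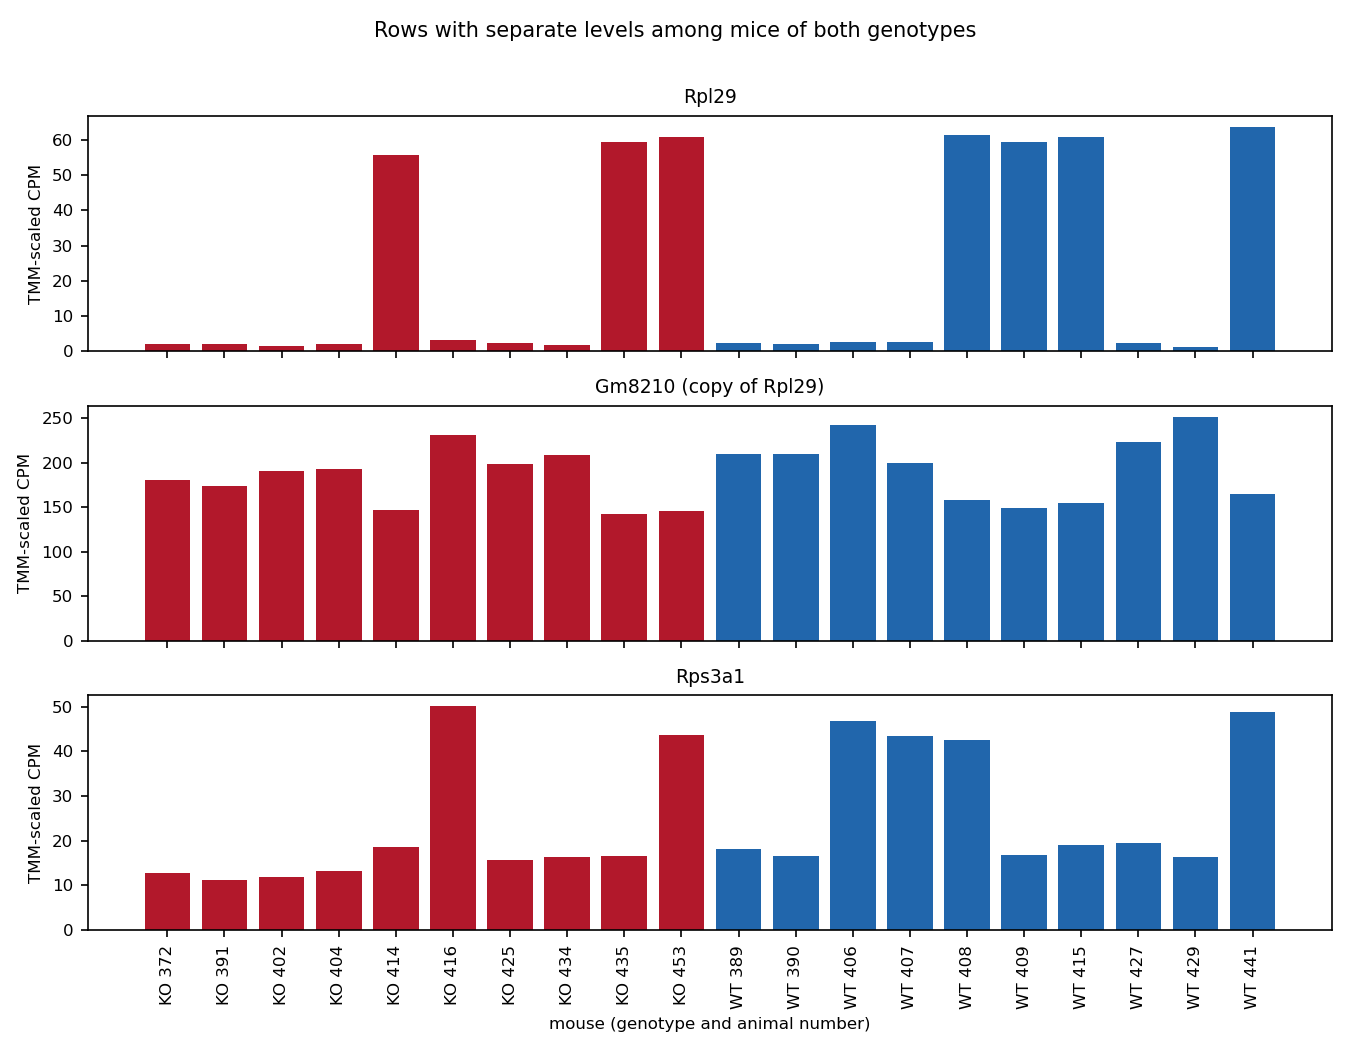
TMM-scaled CPM of Rpl29, of its near copy Gm8210 and of Rps3a1 in each mouse, KO (red) left of WT (blue). Rpl29 is near 0 in 13 mice and above 55 CPM in 7, Gm8210 is lower in the same 7, and Rps3a1 is above 40 CPM in 6 mice.

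Fau and Rack1 are ribosomal parts outside the naming rule. Fau, made as a fusion of a ubiquitin-like protein with Rps30, averaged 8.81 ± 1.66 CPM in KO livers and 12.4 ± 1.36 CPM in WT livers (SD, n = 10 each), a log2 fold change of -0.49 (adjusted p = 0.000215) with TMM and -0.01 with library size alone. Rack1, a scaffold on the small subunit, had -0.17 (adjusted p = 0.0243) with TMM and 0.30 with library size alone, and the call with TMM was lost in 8 of the 20 fits that leave out 1 mouse.

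Of 16 translation factors and other proteins whose mRNAs also have TOP motifs, 6 fell and 1 rose with TMM, with a median log2 fold change of -0.10, and with library size alone all 16 rose. Of all tested genes, 31.0% fell and 28.2% rose with TMM and 68.4% rose with library size alone. Nap1l1, a histone chaperone with a TOP mRNA, was the one that rose. It averaged 57.0 ± 6.45 CPM in KO livers and 31.9 ± 4.62 CPM in WT livers (SD, n = 10 each), a log2 fold change of 0.84 (adjusted p = 1.93e-08). Naca and Btf3, which shield chains that leave the ribosome, and Eif3e, a part of an initiation factor, had -0.21, -0.20 and -0.16 with TMM and 0.26, 0.28 and 0.31 with library size alone. The TMM call of Btf3 was lost without KO_372 and without KO_391, and that of Eif3e without KO_414. Of 40 ribosome biogenesis genes, 8 fell and 4 rose with TMM (median -0.04), and 36 rose and 0 fell with library size alone. The shares called with TMM were thus below the 31.0% and 28.2% of all tested genes. Ddx21 and Pes1, which act in the processing of ribosomal RNA, had log2 fold changes of 0.39 and 0.19, and Heatr1 and Ubtf, which act in its transcription, had -0.38 and -0.25 with TMM and 0.09 and 0.23 with library size alone.

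Genes that import, chaperone or survey ribosomal proteins had 6 of 16 higher and 1 lower with TMM and 15 higher with library size alone, where 28.2% of all tested genes were higher and 31.0% lower with TMM and 68.4% higher with library size alone. Eif6, which keeps the large subunit from joining too early, averaged 88.4 ± 19.1 CPM in KO livers and 42.7 ± 4.81 CPM in WT livers (SD, n = 10 each), a log2 fold change of 1.05 (SE 0.11, adjusted p = 6.49e-08), without overlap. Pelo, which rescues stalled ribosomes, and Mdm2, the ligase that free Rpl5 and Rpl11 can inhibit, had 0.61 and 0.34. Bccip, a chaperone of Rpl23, had -0.41 (adjusted p = 1.73e-07) with TMM and 0.07 with library size alone. Of 21 genes of mTORC1, LARP1 and Myc, 6 rose and 3 fell with TMM, and 18 rose and 0 fell with library size alone, so that the share that rose with TMM was near the 28.2% of all tested genes. Eif4ebp1, the mTORC1 target that holds back initiation, had 0.83 (adjusted p = 4.24e-07) and Rptor, a subunit of mTORC1, 0.49 (adjusted p = 2.22e-06). Myc, which drives ribosomal protein transcription in many cells, averaged 28.8 ± 21.9 CPM in KO livers and 7.003 ± 2.78 CPM in WT livers (SD, n = 10 each), a log2 fold change of 2.04 (SE 0.37, adjusted p = 0.000112). Gabpa, the DNA-binding subunit of GABP, had -0.36 (adjusted p = 1.47e-05) with TMM and 0.11 with library size alone. Larp1 itself had -0.11 (adjusted p = 0.116) with TMM and 0.35 (adjusted p = 5.28e-05) with library size alone.

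Since no source used here gives the strand setting of the counts, fragments of overlapping antisense exons cannot be told apart for Rps25 (Ccdc84), Rpl5 (Dipk1a), Bccip (Dhx32), Gabpa (Atp5j), Pelo (Gm10734) and Rptor (Rptoros). The same holds for Rps4x, Rps9, Rpl13, Rack1 and Ddx21, whose overlapping rows have no symbol, and for Pes1 (4930556J24Rik).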

How the data were processed

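RNA of 20 livers was sequenced, and genotype was taken from the labels, which name no litter, batch or date and do not say how the animals relate; p-values measure the spread between these mice. Raw counts per gene, multi-mapping fragments included, were deposited by the authors. Rsubread and the RefSeq annotation of mm10, whose coordinates are used here, appear in the file names, HISAT2 2.0.5 and DESeq2 in the submitters' processing notes, and no source used here gives the strand setting. The deposited normalized signal equals CPM over the TMM library size (largest relative deviation 4.88e-15), and the authors' RPKM is that signal divided by gene length in kilobases. The authors' deposited ROTS table holds 3 columns used here: log2 fold change, p-value, false discovery rate. Per the file headers, the alignment statistics hold fragment counts per mouse, and 19 of their columns were not used. No symbol is given for 620 genes.

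Genes were compared with edgeR 4.0.16 in R 4.3.3 (filterByExpr with minimum count 10 and minimum total count 15, TMM, robust quasi-likelihood F test, Benjamini-Hochberg adjustment over 13670 tested genes, threshold 0.05), and the script was tested on simulated data. Untested genes held 0.0858% of fragments. SE refers to the fitted coefficient on the log2 scale. Alternatives were DESeq2 1.42.0 and its size factors, upper-quartile factors, library size alone, scaling to the geometric mean of ribosomal protein genes, no filter, a filter of CPM 1 in 10 mice, limma 3.58.1 (voom with quality weights, and trend on log2 RPKM plus 0.1 or 1) and leaving out each mouse; summed near copies and a template-length covariate were added after seeing the data. Near copies were found with blastn 2.17.0 among GENCODE transcripts (90% identity, 80% coverage). Hsd17b12 was also tested by a permutation of log2 CPM with 100000 resamples (two-sided p = 2e-05).

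Named genes were Hsd17b12, the tested matches outside the subunit lists, Rpsa and the stalk, the 5 highest and 5 lowest fold changes per subunit, and up to 4 genes per pathway list with the smallest adjusted p; others are marked in the text, and 1 gene that met this rule is not reported here. The members and lists were chosen with earlier results of these data known. Counts of a gene and its near copies are uncertain where multi-mapping fragments were shared.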

Additional observations from a re-analysis of the deposited data

Results flagged for a closer look

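The KO and the WT values of Hsd17b12, of named ribosomal protein genes and of the subunit sums, as CPM and as shares of assigned fragments, formed 72 groups. A gap test for a single high or low sample (Dixon's, at its 95% critical value for 10 mice) was run on these groups, and chance marks about 1 in 20 of them. It marked 10, and 9 of these were the highest KO value, each in KO_416: 2710.5 CPM for the small-subunit sum, 3558.6 CPM for the large-subunit sum, 209.24 CPM for Rpsa, 432.64 CPM for Rplp0, 179.5 CPM for Rps20, 337.44 CPM for Rps3, 171.17 CPM for Rpl6l, 163.08 CPM for Rpl36al and 156.15 CPM for Rps27rt. These groups are not independent, since they share the mouse and its scaling. As a share of assigned fragments, neither subunit sum was marked. Without KO_416 the number of ribosomal protein genes lower in KO livers with TMM was 47 instead of 43. In the WT group, Rps27l stood apart in WT_406, at 184.27 CPM.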

How the results depend on the processing

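No paired analysis was possible because no KO mouse shares an animal number with a WT mouse. Every other scaling, filter and test run here on the deposited counts or RPKM kept the direction of the subunit medians and the count of lower genes within 1.5 times of 43, apart from library size alone and scaling to the ribosomal protein genes; the authors' deposited ROTS table, which was not rerun, lists 17 as lower. With library size alone 9354 of all tested genes rose and 919 fell, 45 ribosomal protein genes rose and 1 fell, the medians were 0.26 (small subunit) and 0.25 (large subunit), and these log2 fold changes turned positive: 0.47 for Rps19bp1, 0.40 for Rps27l, 0.26 for Rpl6l, 0.23 for Rpl22l1, 0.19 for Rpl7l1, 0.18 for Rpl37rt, 0.15 for Rpl32l, 0.11 for Rpl36al, 0.015 for Rps27rt, 0.011 for Rpsa, 0.40 for Rplp0, 0.29 for Rplp1, 0.44 for Rps4x, 0.40 for Rps9, 0.40 for Rps10, 0.39 for Rps3, 0.023 for Rps3a1, 0.30 for Rack1, 0.26 for Naca, 0.31 for Eif3e, 0.28 for Btf3, 0.088 for Heatr1, 0.23 for Ubtf, 0.066 for Bccip and 0.11 for Gabpa. Scaled to the ribosomal protein genes, 6173 of all tested genes rose and 1147 fell, 8 ribosomal protein genes rose and 7 fell, the medians were both 0.046, and these turned positive: 0.25 for Rps19bp1, 0.19 for Rps27l, 0.057 for Rpl6l, 0.013 for Rpl22l1, 0.0021 for Rpl7l1, 0.21 for Rplp0, 0.091 for Rplp1, 0.23 for Rps4x, 0.21 for Rps9, 0.21 for Rps10, 0.19 for Rps3, 0.0997 for Rack1, 0.064 for Naca, 0.13 for Eif3e, 0.068 for Btf3 and 0.042 for Ubtf. Both follow from the other scale factors. Small fold changes that were not called with TMM also changed sign: Rps19bp1 was 0.0068 with DESeq2 size factors and with the DESeq2 test and 0.018 with limma-voom, Rps4x 0.0082 with limma-voom, the log2 fold change of Rps20 -0.0083 and -0.0082 with limma-trend on log2 RPKM plus 0.1 and 1, Rpl13 -0.041 with near copies summed, and Rplp2 -0.063, Rps20 -0.0196 and Rpl5 -0.0073 with the share of unexpected template lengths as a covariate; the cause was not tested. With near copies summed, 1 ribosomal protein gene rose. These last 2 settings were chosen after seeing the data. Leaving out 1 mouse, 31 (without KO_372) to 47 (without KO_416) ribosomal protein genes fell and 0 rose, 3704 to 4289 of all tested genes fell and 3762 to 4181 rose, the medians ran from -0.25 to -0.16 (small subunit) and -0.23 to -0.17 (large subunit), and Hsd17b12 from -1.70 to -1.62. In those fits the log2 fold change ran from -0.050 to 0.054 for Rps19bp1, -0.072 to 0.039 for Rps4x, -0.046 to 0.061 for Rps20, -0.015 to 0.13 for Rplp2 and -0.017 to 0.059 for Rpl5. Rplp1 lost its call without each KO mouse but KO_416 and without WT_389, WT_390, WT_406, WT_429 and WT_441 (-0.21 to -0.13), Rack1 without each KO mouse but KO_402 and KO_416 (-0.19 to -0.13), Btf3 without KO_372 and KO_391, Eif3e without KO_414 and Rpl37rt without KO_372, and Rpl32l gained one without WT_390. Rpl22l1 (-0.31) and Rpl32l (-0.38) were called lower with the covariate. Rpl39, Rpl39l and Rpl3l had too few counts to test, and Rpl39 was tested only with its near copy added.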

Other observations

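The 141 near-copy rows outside the 89 ribosomal protein genes summed to 3341, 4154 and 5179 CPM (TMM; lowest, median and highest mouse) in KO livers, against 4295, 4614 and 5224 CPM in WT livers. They held 0.487% ± 0.074 of assigned fragments in KO livers and 0.400% ± 0.042 in WT livers (SD, n = 10 each), while the 89 genes held 0.671% ± 0.1003 in KO livers and 0.555% ± 0.058 in WT livers. The groups overlapped on both scales. Rows with -ps in the name summed to 824, 1056 and 1275 CPM in KO livers, against 1091, 1157 and 1305 CPM in WT livers.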
